A study of Mus musculus with 5 samples.

Results

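The genes described here are 39 mouse genes of protein folding, translocation and quality control in the endoplasmic reticulum (ER) and of the unfolded protein response (UPR). They were chosen by symbol for the known roles of their products, by a rule that uses no measured value, although earlier results of these data were known. All 39 were found among the 23234 gene symbols of each file, and all had an FPKM of at least 1 in every library, so that no member was lost to a filter. FPKM is the number of fragments per kilobase of transcript and scaled to the fragments of the library, and is therefore a level that can be compared between genes. The 39 genes were measured in 5 RNA-seq libraries of sorted bone marrow (BM) cells, 1 per condition, from C57BL/6 mice of 7 weeks with the genotype +/Ym1Venus, which carry a Venus reporter at 1 copy of the Ym1 gene. Naïve monocytes (Ly6C+ CD115+ Venus-) and naïve neutrophils (Ly6G+) came from untreated mice. Ym1- monocytes (Ly6C+ CD115+ Venus-), Ym1+ monocytes (Ly6C+ CD115+ Venus+) and neutrophils (Ly6G+) were sorted from mice given 100 µg LPS each by the intravenous route 48 h before. The labels do not give the number of mice behind a library.

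Proteins made for secretion, for granules and for membranes enter the ER through the Sec61 channel, where signal peptidase removes their signal peptide and oligosaccharyltransferase attaches N-glycans. BiP (Hspa5), GRP94 (Hsp90b1), the lectins calreticulin and calnexin and the protein disulfide isomerases then fold them, and chains that fail to fold are sent back to the cytosol for degradation (ERAD). When unfolded chains build up, the sensors IRE1 (Ern1), ATF6 and PERK start the UPR. IRE1 splices the mRNA of Xbp1, ATF6 is cleaved to a transcription factor, and PERK favours translation of Atf4, so that none of these 3 steps is read by the level of a gene. Neutrophil precursors make large amounts of granule protein in the ER, and monocytes stay active in secretion.

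No condition had a second library, so that no test was possible and every difference describes a pair of libraries. Differences are given on the scale of log2(FPKM + 1), and genes at least 2-fold apart on this scale were counted. Judged by how the smallest FPKM values are spaced, an FPKM of 10 for a transcript of 2 kb stood for roughly 85 to 191 fragments, the fewest being in the Ym1- library. Intervals given as ± are 95% counting intervals from this rough depth, and leave out any difference between mice. Csf1r, Ccr2 and F13a1, which mark monocytes, were at 138 to 825 in the 3 monocyte libraries and at 0.986 to 33.9 in the neutrophil libraries, and S100a8 and S100a9, abundant in neutrophils, took 27.7% and 30.0% of all FPKM in neutrophils after LPS and in naïve neutrophils. Plasma cells hold much ER, and 6 genes that mark them summed to an FPKM of at most 1.52 in any library, with Tnfrsf17, Pou2af1 and the gene listed as 2010001M09Rik (Mzb1) at or near 0 throughout.

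Part of the set shares a promoter sequence. The sequences searched for are known as elements of the ER stress response, and the genes were chosen for roles that include this response. The shares below are thus not independent of the choice of the genes. The ER stress element is CCAAT, then 9 bases of any kind, then CCACG, and is bound by NF-Y and ATF6, while ERSE-II is ATTGG, then 1 base of any kind, then CCACG. Both were searched on both strands in the RefSeq promoters of GRCm38.p6, which run from 250 bases before to 50 after a gene's start and which were matched to the files, made on the build mm9, by symbol only. Of the 39 genes, 32 had a promoter entry. The ER stress element was in 8 of these 32 genes (25%; 8 of their 34 entries), against 0.119% of all 32851 promoters, and ERSE-II was in 2 of 32 (6.25%), against 0.0365% of all. The stretches upstream of the start that hold a motif are printed to show how alike they are, with the motif in capitals, read on the strand of the gene and with up to 15 bases on either side.
Hspa5, chr2:34772010-34772058, plus strand: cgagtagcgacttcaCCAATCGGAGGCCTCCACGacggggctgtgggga
Hsp90b1, chr10:86705623-86705671, minus strand: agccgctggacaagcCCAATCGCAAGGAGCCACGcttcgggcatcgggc
Hsp90b1, chr10:86705518-86705566, minus strand: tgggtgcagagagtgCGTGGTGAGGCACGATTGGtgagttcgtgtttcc
Calr, chr8:84847060-84847108, minus strand: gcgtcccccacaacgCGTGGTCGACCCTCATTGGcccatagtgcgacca
Canx, chr11:50325785-50325833, minus strand: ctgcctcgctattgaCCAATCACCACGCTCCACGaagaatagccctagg
Pdia6, chr12:17266476-17266524, plus strand: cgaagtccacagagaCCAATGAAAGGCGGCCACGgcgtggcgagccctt
Dnajc3, chr14:118937812-118937860, plus strand: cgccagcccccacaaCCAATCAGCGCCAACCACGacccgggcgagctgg
Creld2, chr15:88819505-88819553, plus strand: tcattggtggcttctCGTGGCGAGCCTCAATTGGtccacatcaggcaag
Syvn1, chr19:6046517-6046565, plus strand: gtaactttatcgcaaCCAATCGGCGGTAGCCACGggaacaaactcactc
Herpud1, chr8:94386362-94386402, plus strand: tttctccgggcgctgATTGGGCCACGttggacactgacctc

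All of these lie upstream of the RefSeq start of the gene. In Hsp90b1 the element occurred at 2 places, and in Calr, Creld2 and the second place of Hsp90b1 it reads in the opposite direction, so that the capitals begin with CGTGG. Dnajb11 was the other gene with ERSE-II, which lay just after its start and is not printed. Of the 10 genes with a motif, 7 encode chaperones or their partners, 1 a disulfide isomerase (Pdia6) and 2 act in ERAD (Syvn1 and Herpud1). A match is a string of letters and does not show binding.

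As deposited, levels of the ER genes were lowest in naïve neutrophils for 38 of the 39 genes and highest in Ym1- monocytes after LPS for 29. The summed FPKM of the 39 genes was 3850 in naïve monocytes, 6677 in Ym1- and 6105 in Ym1+ monocytes after LPS, 1185 in naïve neutrophils and 3764 in neutrophils after LPS. It was thus 1.73-fold and 1.59-fold higher in the 2 monocyte libraries after LPS than without it, and 3.18-fold higher in neutrophils. In bulk libraries such as these, fewer cells that express a gene and less of its RNA per cell cannot be told apart.

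**Figure D1:**
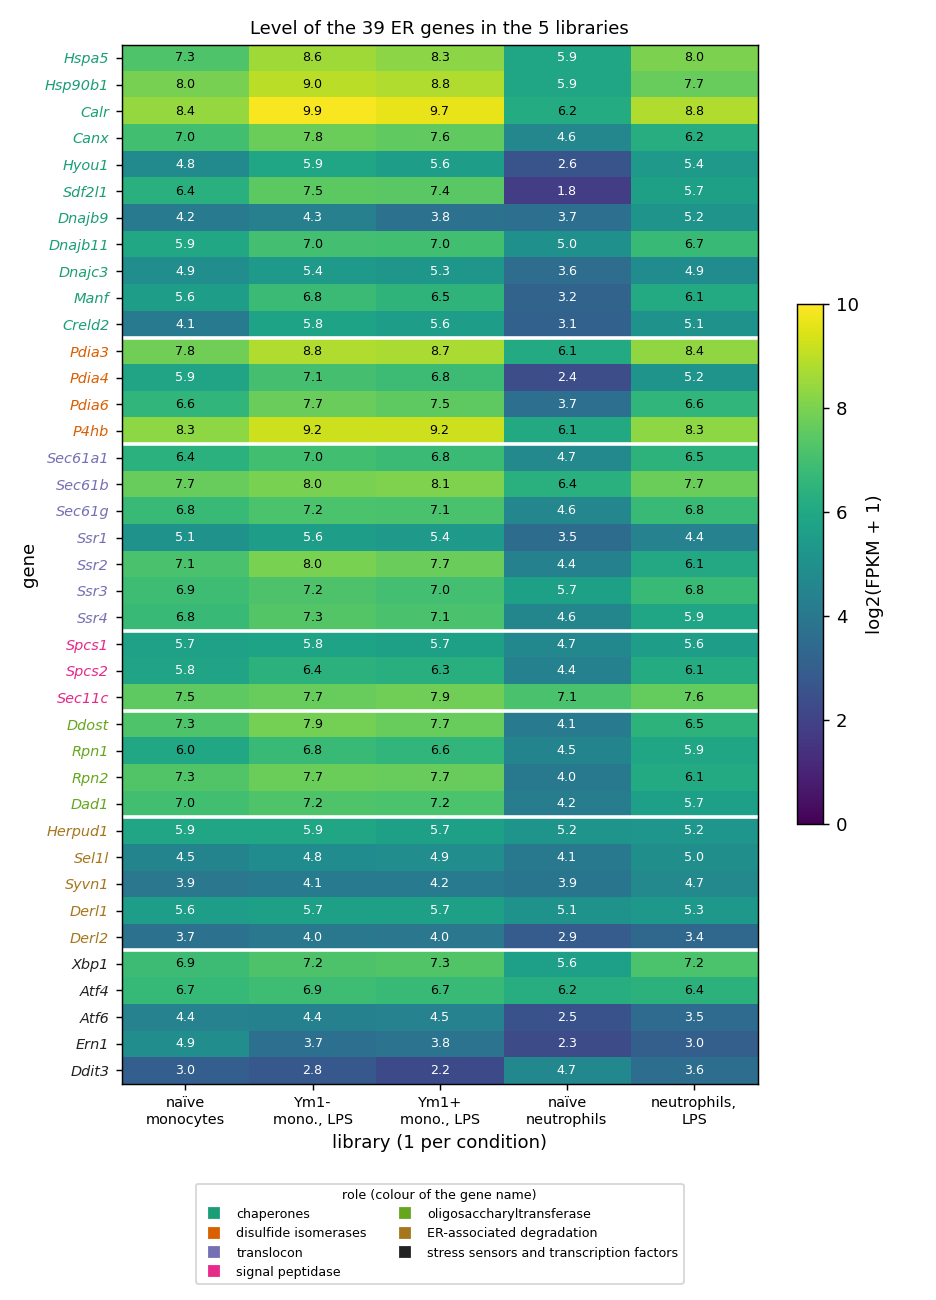
Level of each of the 39 ER genes (rows, grouped by role) in the 5 libraries (columns), as log2(FPKM + 1) written in each cell and shown by colour, with 1 library per condition and no replicates. The column of naïve neutrophils is the darkest for 38 genes, and Ddit3, in the last row, is the exception with its highest level there.

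The chaperones held the most abundant gene of the set. In what follows, 5 values of a gene are FPKM in naïve monocytes, Ym1- monocytes after LPS, Ym1+ monocytes after LPS, naïve neutrophils and neutrophils after LPS, in this order. Placements of neutrophil against monocyte libraries are those of FPKM as deposited, and some depend on the scaling. In median-of-ratios scaling, an alternative used below, the size factors were 0.72 in both neutrophil libraries and 1.22 to 1.29 in the monocyte libraries. Calr, which encodes the calcium-binding lectin chaperone calreticulin, had 345, 964, 812, 70.6 and 447, and was the most abundant member in all 3 monocyte libraries and in neutrophils after LPS. Hsp90b1, which encodes the ER form of HSP90, had 248, 503, 452, 58.7 and 204. Hspa5, which encodes the HSP70 chaperone BiP that also holds the UPR sensors inactive, had 152, 378, 306, 57.1 and 263. For these 3 genes, the naïve neutrophil value was the lowest, and neutrophils after LPS lay above naïve monocytes for Calr and Hspa5 and below them for Hsp90b1. Canx, which encodes the membrane lectin calnexin, had 126, 215, 188, 23.9 and 73.2. Hyou1, a nucleotide exchange factor for BiP, had 26.3, 57.7, 47.9, 5.06 and 41.8. Canx in neutrophils after LPS was below every monocyte library, whereas Hyou1 was above naïve monocytes there.

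Among the partners of BiP, the J-domain proteins, Dnajb11 had 60.7, 126, 124, 31.2 and 106, and was highest in the 2 monocyte libraries after LPS. Dnajc3, which encodes p58IPK, had 29.3, 41.0, 37.7, 10.8 and 27.8, a narrow range among the 4 libraries other than naïve neutrophils. Dnajb9, which encodes ERdj4, a J-domain protein that represses IRE1, had 17.1, 19.4, 12.7, 11.6 and 35.2. Dnajb9 was the 1 chaperone gene with its highest level in neutrophils after LPS, and was lower in Ym1+ monocytes than in naïve monocytes. Sdf2l1, which encodes a partner of the ERdj3 and BiP complex, had 81.1, 178, 173, 2.50 and 50.9. Manf, a UPR-induced folding and survival factor, had 46.3, 112, 90.7, 7.99 and 67.7. Creld2, another UPR-induced ER gene, had 16.3, 55.1, 47.6, 7.53 and 34.1. Sdf2l1 had the widest range of all members, 71.3-fold between Ym1- monocytes and naïve neutrophils, where its level rests on about 26 fragments.

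The protein disulfide isomerases, which form and shuffle disulfide bonds, were all lowest in naïve neutrophils and highest in Ym1- monocytes. P4hb, which encodes PDI itself, had 316, 600.1, 599.5, 65.9 and 318. Pdia3, which encodes ERp57, the partner of calreticulin and calnexin, had 228, 443, 425, 67.3 and 327. These 2 genes were lowest in naïve neutrophils and near their naïve monocyte level, or above it, in neutrophils after LPS. Pdia6 had 93.6, 209.8, 183, 11.7 and 93.6, and its levels in naïve monocytes and in neutrophils after LPS were nearly equal. Pdia4 had 56.9, 132, 114, 4.14 and 34.8, the widest range among the isomerases at 31.8-fold.

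The translocation genes differed less between libraries. Sec61a1, the channel subunit, had 81.8, 123, 112, 24.9 and 86.7. Sec61b, a small subunit of the channel, had 204, 250.5, 265, 81.2 and 213, and Sec61g, the other small subunit, had 108, 141, 137, 24.0 and 108. In all 3 subunits, neutrophils after LPS were within the range of the monocytes. The translocon-associated protein subunits were more uneven. Ssr1 had 33.1, 47.5, 40.9, 10.6 and 20.8. Ssr2 had 139, 253, 209, 19.9 and 65.3. Ssr3 had 117, 147, 127, 50.6 and 109. Ssr1 and Ssr2 stayed below every monocyte library in neutrophils after LPS, whereas Ssr3 did so by less. Ssr4 had 109.9, 158, 139.9, 22.9 and 59.8, and also stayed below the monocytes.

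Of the signal peptidase genes, Sec11c, a catalytic subunit, had 183, 204, 229.8, 138 and 198. It was the most abundant member in naïve neutrophils and the least variable gene of the secretory machinery, with a 1.67-fold range. Spcs2 had 56.2, 85.9, 78.4, 20.2 and 69.5, and Spcs1 had 51.6, 55.4, 50.5, 24.5 and 47.1, both accessory subunits. Spcs1 was nearly level among the libraries other than naïve neutrophils. The oligosaccharyltransferase genes were the group with the largest deficit in neutrophils. Ddost had 152, 239, 203, 16.6 and 87.1. Rpn2 had 155, 213, 202, 15.6 and 68.8. Rpn1 had 63.2, 108, 95.5, 21.9 and 57.8. Ddost, Rpn2 and Rpn1 were below every monocyte library in both neutrophil libraries. Dad1, another subunit, had 126, 150.0, 141, 17.7 and 49.5, and was also below every monocyte library in both.

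The 5 ERAD genes were the flattest group, with ranges over the 5 libraries of 1.5-fold to 2.28-fold. Herpud1, which recruits the ubiquitin ligase complex, had 57.6, 57.9, 49.8, 35.6 and 37.0. Derl1, a channel-like derlin, had 46.8, 50.1, 50.2, 33.5 and 39.7. Derl2, another derlin, lay between 6.52 and 14.9, Sel1l, the adaptor of the ligase, between 15.7 and 30.3, and Syvn1, which encodes the ligase HRD1, between 13.8 and 25.2. Sel1l and Syvn1 were highest in neutrophils after LPS.

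The sensors and transcription factors followed no common order. Xbp1, the transcription factor spliced by IRE1, had 115, 147, 157, 48.5 and 142. Atf4, the transcription factor translated when PERK or its sister kinases are active, had 103, 116, 105, 73.8 and 86.1. Atf6, a membrane-bound sensor and factor, had 20.7, 19.9, 20.9, 4.69 and 10.4. All 3 were lowest in naïve neutrophils, and Atf4 varied by only 1.58-fold. Ern1, which encodes IRE1α, had 29.3, 11.6, 13, 3.96 and 7.07, and was highest in naïve monocytes. Ddit3, which encodes CHOP, a factor of prolonged ER stress, had 6.84, 5.77, 3.72, 24.7 and 11.1. It was the only member whose level in naïve neutrophils exceeded every monocyte library, although the monocyte values rest on about 15 to 25 fragments each.

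Naïve neutrophils had lower levels of the secretory machinery than naïve monocytes. Of the 39 genes, 29 were at least 2-fold lower and 1 was higher, whereas 42.7% of the 10944 genes compared were lower and 10.8% higher. The median difference was -1.56 for the 39 genes and -0.79 for all genes compared. Sdf2l1 (-4.55 ± 0.57), Pdia4 (-3.49 ± 0.31), Rpn2 (-3.24 ± 0.15) and Ddost (-3.12 ± 0.17) were the furthest below, and Ddit3 was above (1.71 ± 0.62). By role, 9 of 11 chaperone genes were at least 2-fold lower (median -2.06), as were 4 of 4 disulfide isomerases (-2.57), 7 of 7 translocon genes (-1.68), 2 of 3 signal peptidase genes (-1.04), 4 of 4 oligosaccharyltransferase genes (-2.94), 0 of 5 ERAD genes (-0.47) and 3 of 5 sensors and transcription factors (-1.22). The last 3 were Xbp1 (-1.22), Atf6 (-1.93) and Ern1 (-2.61). S100a8 and S100a9 hold 30.0% of the naïve neutrophil FPKM, and the size of this difference depends on the scaling. With median-of-ratios scaling the median of all genes was -0.03 and that of the 39 genes -0.76. Of the members 17 were then lower and 1 higher, and of the 10902 genes compared 2634 were lower and 2428 higher. Among only those genes at least 2-fold apart, 48.0% rather than 20.2% were higher. Under that scaling 7 genes changed sign and were above naïve monocytes, namely Dnajb9, Sec11c, Herpud1, Sel1l, Syvn1, Derl1 and Atf4, so that 4 of the 5 ERAD genes were then above naïve monocytes (median 0.35). After rescaling to TPM all 5 ERAD genes stayed below (median -0.88). Beside this, 5 genes of early granulocytes summed to an FPKM of 2484 in naïve monocytes and 56.2 in naïve neutrophils. For 5 genes of cycling cells the sums were 526 and 131. Each of these genes was lower in naïve neutrophils. The part of such cells in the difference was not tested.

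In neutrophils, 28 of the 39 genes were at least 2-fold higher 48 h after LPS and 1 was lower, against 8.96% higher and 5.35% lower among the 9583 genes compared. The naïve neutrophil library also entered the comparison with naïve monocytes, with the opposite sign, so that the 2 comparisons are not independent. The median difference was 1.53 for the 39 genes and 0.07 for all genes. Sdf2l1 was the furthest above at 3.89 ± 0.58, followed by Manf (2.93 ± 0.48), Pdia6 (2.90 ± 0.20), Hyou1 (2.82 ± 0.24) and Pdia4 (2.80 ± 0.32). As linear ratios of FPKM, Calr was 6.34 times, Hspa5 4.61 times and P4hb 4.82 times its naïve level. All 11 chaperone genes (median 2.04), all 4 disulfide isomerases (2.53) and all 4 oligosaccharyltransferase genes (1.75) were at least 2-fold higher, as were 6 of 7 translocon genes (1.38) and 1 of 3 signal peptidase genes (0.92). None of the 5 ERAD genes was 2-fold apart (median 0.46). Xbp1 (1.53 ± 0.15) and Atf6 (1.0 ± 0.20) were higher, Ern1 (0.70 ± 0.53) and Atf4 (0.22 ± 0.14) were less than 2-fold apart, and Ddit3 was lower (-1.08 ± 0.46). Close to the 2-fold line, Atf6 lay just inside it at 1.0 and Spcs1 just outside at 0.92. After rescaling to TPM, 26 members were higher and 1 lower, and of the 9996 genes then compared 801 were higher and 766 lower. Among only those genes at least 2-fold apart, 51.1% rather than 62.6% were higher. Other genes moved with this difference. The 5 genes of early granulocytes, Mpo, Elane, Prtn3, Ctsg and Ms4a3, summed to an FPKM of 56.2 in naïve neutrophils and 822 after LPS, all 5 being higher after LPS, and 5 genes of cycling cells summed to 131 and 222. The part of such cells in the difference was not tested. The 6 monocyte genes summed to 1416 in naïve neutrophils and 1636 after LPS, mainly Ly6c2 (1377 and 1613), with F13a1 at 3.87 and 10.7, Csf1r at 33.9 and 10.5, and Ccr2, Irf8 and Cx3cr1 at or below 1.13.

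After LPS, Ym1- monocytes had 8 of 11 chaperone genes and 2 of 4 disulfide isomerases past 2-fold above naïve monocytes, Ym1+ monocytes had 5 of 11 and 0 of 4, and neither had any of the 5 sensors and transcription factors past it in that direction. In Ym1- monocytes, which share the Venus- gate with naïve monocytes, 10 of the 39 genes were at least 2-fold higher and 1 was lower, against 2.86% and 4.72% of the 10714 genes compared, and the median difference was 0.51 against -0.00 for all genes. The 10 genes were 8 chaperones, Creld2 (1.70 ± 0.29), Calr (1.48), Hspa5 (1.31), Manf (1.26), Sdf2l1 (1.13), Hyou1 (1.11), Dnajb11 (1.04) and Hsp90b1 (1.02), and the disulfide isomerases Pdia4 (1.20) and Pdia6 (1.16). Pdia3 and P4hb lay just under 2-fold at 0.95 and 0.92. None of 7 translocon genes (median 0.51), 3 signal peptidase genes (0.15), 4 oligosaccharyltransferase genes (0.55) or 5 ERAD genes (0.18) was 2-fold apart. All 29 genes of the secretory machinery were above 0, against 5344 of the 10714 genes compared. The gene that was lower was Ern1 (-1.26 ± 0.40), while Xbp1 (0.35 ± 0.15) and Atf4 (0.18 ± 0.16) were above their naïve level by less than 2-fold and Atf6 (-0.06 ± 0.15) and Ddit3 (-0.21 ± 0.93) lay within counting error. Of the chaperones not 2-fold apart, Canx was at 0.76, Dnajc3 at 0.47 and Dnajb9 at 0.17 ± 0.35. Beside this, the early granulocyte genes summed to 2484 in naïve and 1964 in Ym1- monocytes, with Mpo and Elane lower and Prtn3, Ctsg and Ms4a3 higher in the latter. The genes of cycling cells summed to 526 and 611, 7 neutrophil genes to 1078 and 1873, and 5 eosinophil genes to 2.75 and 30.9, mainly Prg2. Of the cycling genes, Mki67 was lower in Ym1- monocytes. Of the neutrophil genes, S100a8 (595 and 1107), S100a9 (331 and 648), Cxcr2 and Mmp8 were higher there. Retnlg, Ltf (23.2 and 9.01) and Camp (39.6 and 13.5) were lower. The part of such cells in the difference from naïve monocytes was not tested.

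Ym1+ monocytes differed from naïve monocytes in LPS and in the Venus gate together. Of the 39 genes 5 were at least 2-fold higher, all chaperones, and 1 was lower, against 2.59% and 4.51% of the 10698 genes compared. The median was 0.39 for the 39 genes and -0.06 for all genes. The 5 were Creld2 (1.5 ± 0.27), Calr (1.23), Sdf2l1 (1.08), Dnajb11 (1.02) and Hspa5 (1.01), and Pdia4, Manf, Pdia6, P4hb and Pdia3 lay just under the line at 0.99 to 0.89. With median-of-ratios scaling 9 members were past it (299 of all 10441 genes), and after rescaling to TPM 3 were (339 of all 11358). Ern1 was again the gene that was lower (-1.11 ± 0.29), and Dnajb9 was at -0.40 ± 0.32. Beside this, the early granulocyte genes summed to 2484 in naïve and 1622 in Ym1+ monocytes, with Mpo, Elane and Ctsg lower and Prtn3 and Ms4a3 higher in the latter. The genes of cycling cells summed to 526 and 800.2, and 7 neutrophil genes to 1078 and 13610. The neutrophil sum was mainly S100a8 (595 and 7993) and S100a9 (331 and 5205), while Retnlg was at 13.9 and 13.7. The part of such cells in this difference was not tested. This comparison shares the naïve library with the one before, so that no overlap between the 2 is given.

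**Figure D2:**
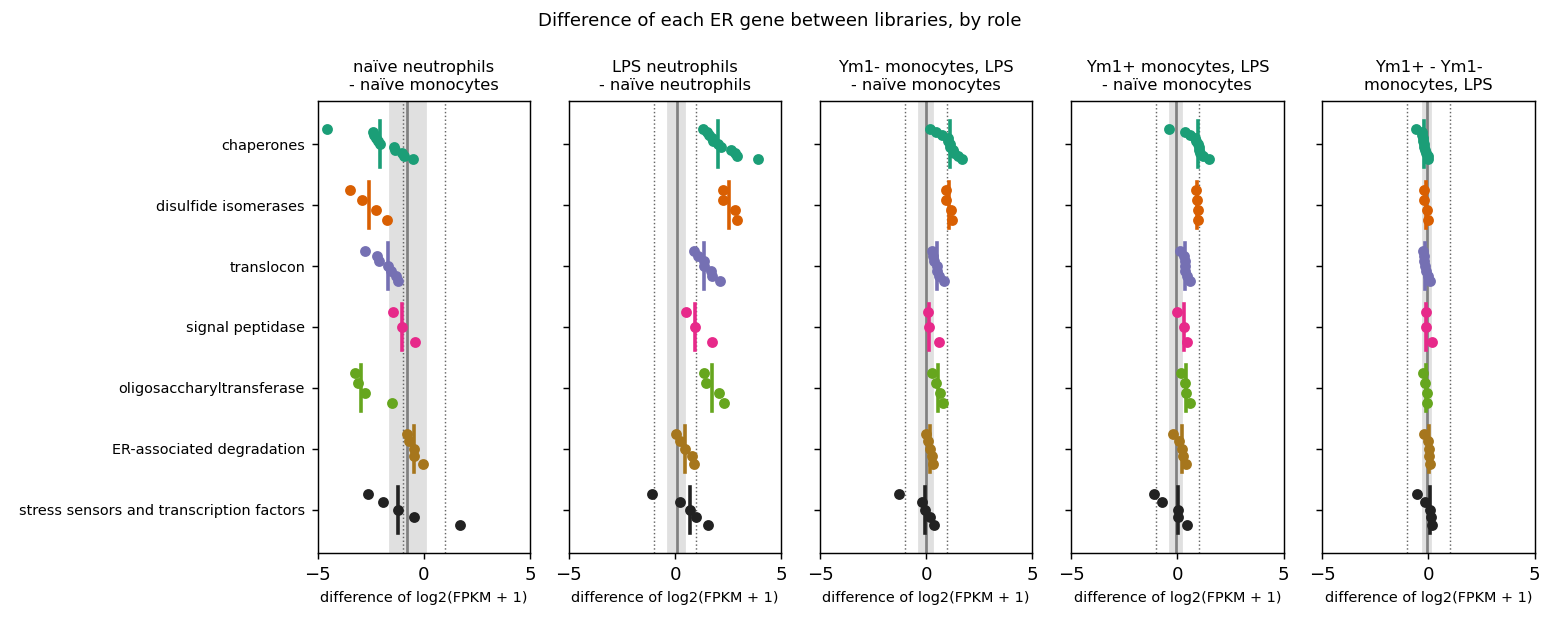
Difference of log2(FPKM + 1) for each ER gene (points, 1 per gene, with the median of each role as a bar) in 5 pairs of libraries. The grey line and band are the median and the interquartile range of all genes compared, dotted lines mark 2-fold, and chaperones and disulfide isomerases lie furthest to the right in neutrophils after LPS (medians of 2.04 and 2.53), with ERAD genes near the band.

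The LPS differences in neutrophils and in Ym1- monocytes come from 4 separate libraries and could be set side by side. All 10 genes past 2-fold in monocytes were also so in neutrophils (10 of 39, or 25.6%, against 116 of 9074 genes compared in both, or 1.28%), and a further 18 were 2-fold higher in neutrophils alone, against 670 of the 9074. The difference was larger in neutrophils for 38 of the 39 genes, the exception being Ddit3, and for 5213 of the 9074. Across the 39 genes the 2 differences were correlated with Pearson's r = 0.74 and Spearman's rho = 0.85, and across all 9074 genes with 0.41 and 0.54. These describe genes, which are not independent, and no test was made. Whether the LPS difference of a gene differed between the cell types was not tested either, as it would need replicates. Ern1 was above its naïve value in neutrophils (0.70) and below it in monocytes (-1.26), and Atf6 also had opposite signs (1.0 and -0.06), its monocyte value being within counting error.

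**Figure D3:**
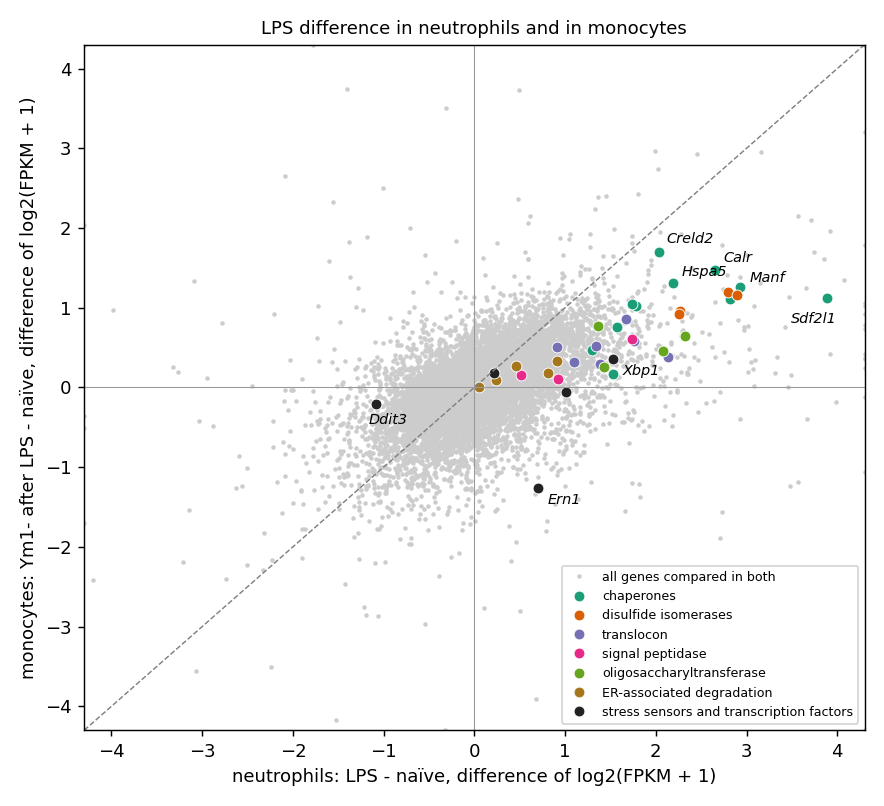
Difference after LPS in neutrophils (horizontal) and in Ym1- against naïve monocytes (vertical), both as log2(FPKM + 1), 1 library per condition, with ER genes coloured by role and 9074 genes in grey (values beyond the axes are drawn at the edge). Of the ER genes 38 lie below the dashed line of equal difference, and Creld2, at 2.04 and 1.70, is the highest on the vertical axis.

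Between Ym1+ and Ym1- monocytes after LPS, none of the 39 genes was 2-fold apart. This is near the share of the 10489 genes compared, of which 1.38% were higher and 1.18% lower. The median was -0.14 against -0.06 for all genes. As deposited, 31 members were below the Ym1- level and 8 above, and of all genes compared 6089 were below and 4400 above. Of the members, 22 were below and 1 above by more than the counting interval, which leaves out any difference between mice. The like count over all genes is not given, so that these 2 counts cannot be read as particular to the members. Of the 29 machinery genes, 27 were below. The members furthest below were Dnajb9 (-0.57 ± 0.34), Ddit3 (-0.52 ± 0.96), Hspa5 (-0.30 ± 0.05) and Manf (-0.30 ± 0.22), and the furthest above were Sec11c (0.17 ± 0.13) and Ern1 (0.15 ± 0.42). With median-of-ratios scaling 25 members were below and 14 above, with a median of -0.07, and 22 of the 29 machinery genes were below. Beside this, 7 neutrophil genes summed to 13610 in Ym1+ and 1873 in Ym1- monocytes, those of cycling cells to 800.2 and 611, and the eosinophil genes to 1.31 and 30.9, and their part in the difference was not tested.

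Set against each other within a library, the median of the machinery lay above that of the sensors in every library except naïve neutrophils. The median log2(FPKM + 1) of the 29 machinery genes exceeded that of the 5 sensors and transcription factors by 1.84 in naïve monocytes, 2.85 in Ym1- and 2.69 in Ym1+ monocytes after LPS and 2.54 in neutrophils after LPS, and the difference was -0.17 in naïve neutrophils. This within-library difference does not depend on the scaling of libraries against each other, apart from the pseudocount. As medians of FPKM, the machinery was at 108, 150.0, 139.9, 21.9 and 69.5 and the sensors at 29.3, 19.9, 20.9, 24.7 and 11.1 in the order of libraries given above. The sensor median is the value of Ddit3 in both neutrophil libraries, of Ern1 in naïve monocytes and of Atf6 in both monocyte libraries after LPS. Xbp1, Atf4, Atf6 and Ern1 were each lowest in naïve neutrophils, as the machinery median was. The negative difference in naïve neutrophils thus rests on Ddit3. As a group, the sensors and transcription factors summed to 274, 300.5, 299.3, 156 and 257.

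Genes with an ER stress element or ERSE-II and genes without one were set side by side. After LPS in neutrophils, the 10 genes with a motif had a median difference of 1.76 (8 at least 2-fold higher) and the 22 without had 1.41 (15 higher, 1 lower). In Ym1- against naïve monocytes these medians were 1.03 (6 of 10 higher) and 0.37 (2 of 22 higher, 1 lower). Among the secretory machinery alone, the medians in monocytes were 1.10 for 8 genes with a motif and 0.51 for 16 without, and in neutrophils 1.91 and 1.63. The motif and the role go together here, since 7 of the 8 are chaperones, so that the 2 cannot be told apart. Sdf2l1 and Pdia4, with no exact motif in the window searched, were among the genes furthest above their naïve level in neutrophils (3.89 and 2.80), and Herpud1, with ERSE-II, was at 0.05 in neutrophils and 0.01 in monocytes.

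**Figure D4:**
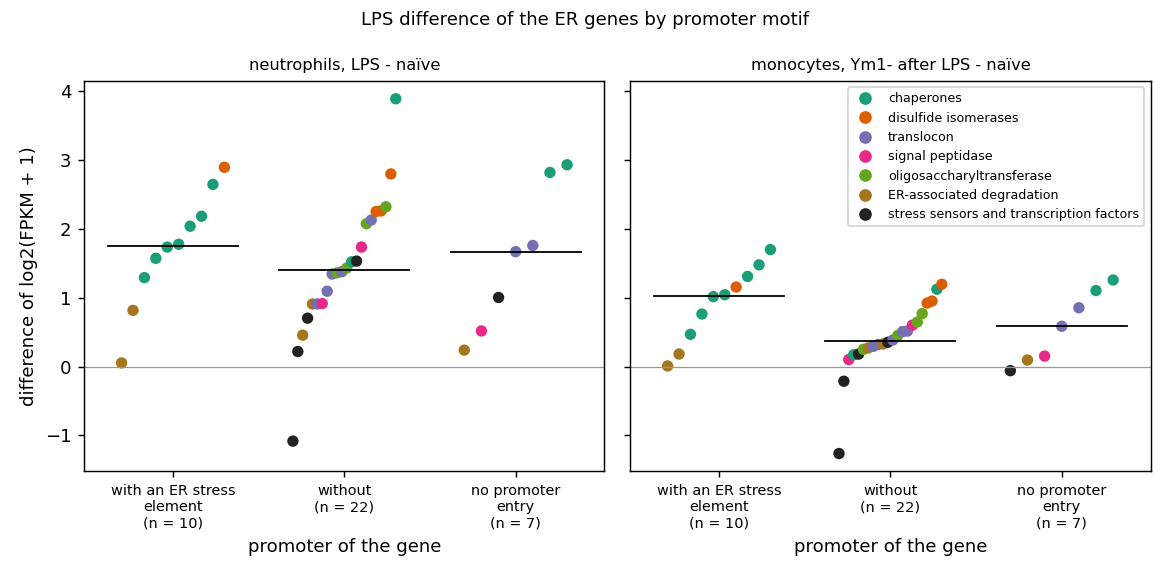
Difference of log2(FPKM + 1) after LPS in neutrophils (left) and in Ym1- against naïve monocytes (right) for ER genes with an ER stress element or ERSE-II in the promoter, without one, or with no promoter entry, 1 point per gene coloured by role, with the median as a bar. The medians with and without a motif are 1.76 and 1.41 in neutrophils and 1.03 and 0.37 in monocytes.

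Other genes of the same pathways were described by the same counts. Of 108 further genes of folding, glycosylation, translocation, ERAD, the UPR and ER to Golgi transport, 107 were found. In neutrophils after LPS, 26 of the 96 that were compared were at least 2-fold higher (27.1%, against 8.96% of all genes) and 1 was lower (median 0.64, against 0.07). These were 6 of 15 N-glycan processing genes (median 0.88), 5 of 14 translocation and targeting genes (0.87), 7 of 21 ER to Golgi transport genes (0.95), 3 of 11 other chaperones and prolyl isomerases (0.53), 2 of 10 oxidative folding genes (0.51), 1 of 12 other ERAD genes (0.38, and at 8.33% near the share of all genes) and 2 of 13 other UPR and stress response genes (0.34). Sec24d, a cargo subunit of the COPII coat, was at 16.1 after LPS and 0.35 in naïve neutrophils, and Nupr1, a stress-inducible nuclear protein gene, at 15.1 and 0.47. Chac1, a target of ATF4 and CHOP, was at 3.29 and 8.27, and Bbc3, which encodes the death factor PUMA, at 1.80 and 3.49. Chac1 was thus the gene of this list that was 2-fold lower, as Ddit3 was among the members. Asns, also a target of ATF4, went the other way, at 53.0 after LPS and 15.2 in naïve neutrophils.

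Between the naïve libraries, 56 of 103 such genes were at least 2-fold lower in neutrophils (54.4%, against 42.7% of all genes) and 6 higher (median -1.06, against -0.79). Txndc5, a disulfide isomerase, was at 0.61 in naïve neutrophils and 141 in naïve monocytes, and Nupr1 at 0.47 and 62.7, whereas Chac1 (8.27 and 0.22) and Asns, the asparagine synthetase gene and an ATF4 target (15.2 and 1.24), were higher in neutrophils. In neutrophils after LPS, Txndc5 was at 0.73, whereas Asns was at 53.0. In Ym1- against naïve monocytes 3 of 102 were higher (2.94%, near the 2.86% of all genes) and 1 lower (median 0.28), with Asns at 6.82 against 1.24 and Fkbp11, a prolyl isomerase of secretory cells, at 5.62 against 1.71, while Bbc3 was at 2.53 against 6.87 and Wfs1 at 3.88 against 7.97. In Ym1+ against naïve monocytes 2 of 102 were higher (1.96%, against 2.59% of all genes) and 2 lower (median 0.20). The other UPR and stress response genes had medians of -0.09 and -0.12 in these 2 comparisons, with 5 of 15 above 0 in each. Over all genes compared, 5344 of 10714 and 4718 of 10698 were above 0. In Ym1+ monocytes Asns was at 6.76 against 1.24, Sec24d at 16.8 against 6.12, Bbc3 at 2.21 against 6.87 and Ppp1r15a, which encodes the phosphatase subunit GADD34, at 1.48 against 4.07. Between Ym1+ and Ym1- monocytes 0 of 102 were higher and 1 lower (median -0.08). The lower gene was Fkbp11 at 2.15 against 5.62, and Sec61a2 was at 1.81 against 3.16, Tram2 at 6.50 against 4.67 and Creb3l2 at 3.16 against 2.26.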

How the data were processed

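RNA-seq was made of 5 libraries, 1 per condition. The authors deposited 1 table per library with an FPKM value for each gene symbol. Per the submitters' processing notes, mm9 was the build, and the tools were Cufflinks 2.1.1 and TopHat2 2.0.8. Their options and the annotation were not given in the sources used here. Differences were taken as log2(FPKM + 1) over genes reaching an FPKM of 1 in at least 1 library of a pair, and genes 2-fold apart were counted, in Python 3.11.15 with numpy 2.4.6, pandas 2.3.3 and scipy 1.17.1. The scripts were tested on simulated data. With 1 library per condition, no test, SD or p-value was computed. Fragments per gene were estimated from the steps between FPKM values of up to 0.3, and counting intervals cover counting error only.

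The members and gene lists were chosen with earlier results of these data known. All 39 members are named. FPKM in every library is given for those at least 2-fold apart in any comparison or among the 2 most abundant of their role, 36 genes in all. Of the other ER genes, the 2 furthest in each direction are named per comparison. Alternatives were a pseudocount of 0.1, a minimum of 5 FPKM or none, rescaling to TPM, median-of-ratios scaling and a 4-fold threshold. Promoters are from RefSeq, GRCm38.p6, matched by symbol.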

Additional observations from a re-analysis of the deposited data

Results flagged for a closer look

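Ern1, the gene of the UPR sensor IRE1α, was picked out because its LPS difference had opposite signs in the 2 cell types, each beyond its counting interval, at 0.70 in neutrophils and -1.26 in Ym1- against naïve monocytes on the log2(FPKM + 1) scale. The difference between the cell types was not tested, since each condition has 1 library.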

How the results depend on the processing

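No paired analysis was possible because each condition has 1 library, and no replicate could be left out. The values come from a pair of libraries each, so that differences between mice are not covered, and the depth was lowest in the Ym1- library. Of 115 recomputed values, 98 stayed close to the reported value. Of these, 1 changed sign, the median of the sensors and transcription factors in Ym1+ against naïve monocytes, from 0.01 to -0.03 after rescaling to TPM. The other 17 were as follows. After rescaling to TPM, the medians in naïve neutrophils against naïve monocytes were -1.98 for the 39 genes, -2.47 for the secretory machinery and -1.63 for the sensors and transcription factors. Ym1+ monocytes then had 3 members at least 2-fold above naïve monocytes (339 of all 11358 genes). Under median-of-ratios scaling these medians were -0.76, -1.23 and -0.39. Then 17 members were lower in naïve neutrophils (2634 of all 10902 genes), and 9 were higher in Ym1+ monocytes (299 of all 10441). With 4-fold as the threshold, naïve neutrophils had 0 members higher and 16 lower, against 480 and 1783 of all 10944 genes. In neutrophils after LPS 13 were higher and 0 lower, against 158 and 82 of all 9583. In either comparison of LPS with naïve monocytes 0 were higher or lower. Over all genes, 36 were higher and 64 lower of 10714 in Ym1- monocytes, and 78 and 76 of 10698 in Ym1+ monocytes. Why these values moved was not tested. A pseudocount of 0.1, a minimum of 5 FPKM and no minimum moved none of the values computed under them past these limits.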

Other observations

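Outside the 39 genes, 39 further gene symbols had an ER stress element or ERSE-II in the RefSeq promoter, of which 7 were compared between the naïve libraries. Krtcap2, which encodes a small subunit of oligosaccharyltransferase, had an FPKM of 149 in naïve monocytes, 186 and 165 in Ym1- and Ym1+ monocytes after LPS, 8.49 in naïve neutrophils and 65.4 in neutrophils after LPS, a difference after LPS of 2.81 in neutrophils and 0.32 in Ym1- monocytes. Nucb1, which encodes the calcium-binding protein nucleobindin 1, had 116, 103, 112, 40.4 and 102 in the same order, a difference of 1.31 in neutrophils and -0.17 in Ym1- monocytes. Derl3, a derlin, was under an FPKM of 1 in all 5 libraries. Rbm39, an RNA-binding protein gene, was at 78.4 in naïve neutrophils and 40.2 after LPS. In neutrophils after LPS 6 such genes were compared, and 2, Krtcap2 and Nucb1, were at least 2-fold higher, against 8.96% of all genes. The median of the 6 was 0.16, against 0.07 for all genes, with Alg12 at 0.27, Hnrnpa3 at 0.06, Pan2 at -0.43 and Rbm39 at -0.95. In Ym1- against naïve monocytes 0 of 7 were 2-fold higher or lower (median 0.05). A promoter match thus did not go with a higher level in every gene.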
